A study of Homo sapiens with 9 samples.

Results

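The G1/S and DNA replication genes described here are 51 genes out of the 20848 in the deposited gene tables. They were chosen by name as parts of the replication machinery and of the switch into S phase, and an older symbol was used where the tables hold it (ORC1L for ORC1, ORC6L for ORC6). All 51 were found, and all 51 passed the filter on low counts that left 13856 genes for testing. They were sorted by role into origin licensing (4 genes), the replicative helicase (12), the sliding clamp and its loader (5), polymerases and primase (8), nucleotide synthesis (4), lagging strand and single-strand binding (4), G1/S regulators (6), S phase chromatin (5) and fork checkpoint and repair (3). The study examined RNA levels and splicing in U251, an established human glioblastoma line, after loss of Musashi1 (gene MSI1), an RNA-binding protein. Total RNA was sequenced from 3 U251 samples labelled as MSI1 knockdown and from 3 U251 samples labelled wild type, called controls here. A further 3 wild type samples were used for iCLIP, which marks single nucleotides crosslinked to MSI1, with a monoclonal antibody to MSI1. No drug, vector or other treatment is named for either RNA-seq group, and how MSI1 was lowered and what the controls received is not given in the sources used here. All libraries share the genome of 1 cell line. The growth text of each sample, RNA-seq included, describes ultraviolet crosslinking of plated cells, and the protocol says that 3 biological replicates were combined, so the p-values below measure the spread between libraries, which may be technical.

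Before S phase, the origin recognition complex with CDC6 and CDT1 loads the MCM ring onto DNA. Cyclin E with its kinase, and the E2F transcription factors that the RB family holds back, then drive the cell across the G1/S boundary. In S phase CDC45 and the GINS proteins turn the MCM ring into the working helicase, the RFC loader places the PCNA clamp, and the polymerases copy DNA from deoxynucleotides made by ribonucleotide reductase and thymidylate synthase. Many of these genes are E2F targets whose RNA peaks near the G1/S boundary, and dividing tumour cell lines express them.

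MSI1 RNA was at 3.15, 5.11 and 2.26 CPM (read counts scaled to library size, after TMM normalisation) in knockdown libraries 1, 2 and 3, against 16.0, 17.7 and 7.59 CPM in control libraries 1, 2 and 3. Each knockdown library lay below each control, and control 3 was the lowest control. The log2 fold change was −1.97 (standard error 0.42), with an adjusted p of 0.0699 by edgeR's quasi-likelihood test with the group alone and of 0.00279 once replicate number entered as a block. Library totals of gene counts ran between 32919299 and 47277016. Control library 3 stood apart: on the first principal component, which held 62.5% of the variance, it scored 80.6 while the other 5 libraries lay between −40.9 and 10.4. Its log2 deviation from the mean of controls 1 and 2 ran against the GC content of the transcript (Pearson's r = −0.84 over 13376 genes, a description across genes of the same libraries). Of the markers of glioma and astrocyte lines, VIM averaged 2442 CPM in knockdown libraries and 2579 CPM in controls, SOX2 89.9 and 152 CPM, NES 901 and 759 CPM, and GFAP 74.4 and 65.2 CPM. The leukocyte genes PTPRC and CD3E and the endothelial gene PECAM1 did not pass 0.0525 CPM in any library, while CD68, CD14 and VWF of the same lists reached 6.54, 0.761 and 0.997 CPM.

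RFC5, of the clamp loader, was the 1 member called higher in the fit with the group alone, and no member was called lower in it. The log2 fold change, knockdown over control, was below 0 for 38 of the 51 genes and for 7563 of all 13856 genes tested. Its median was −0.16 over the members and −0.04 over all genes tested. By edgeR's quasi-likelihood test with Benjamini-Hochberg adjustment over all genes, a threshold of 0.05 and the group alone in the design, 0 members were called lower, while 0.902% of all genes tested were. The same test called 1 member higher, RFC5, while 0.772% of all genes tested were. It gave 12 of the 51 members an unadjusted p under 0.05, and 2154 of all 13856 genes. DESeq2 called E2F8 and CDCA7 lower (2 members, background 2.23%) and RFC5 and CCNE2 higher (2 members, background 2.82%). In bulk RNA, fewer cells in S phase and less RNA of these genes per cell cannot be told apart.

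Libraries with the same replicate number deviated together from their group means, so the fit with the replicate number as a block is given beside each call that it changes. The match was weakest for replicate 1, as control 1 correlated more with knockdown 2 (0.494) than with knockdown 1 (0.318). In both groups the deviation of library 3 ran against GC content, as described below. With the block, edgeR called 15 members lower, where 10.3% of all genes tested were called lower, and 2 members higher, where 7.04% were. The 15 were MCM2, MCM3, MCM4, MCM6 and GINS2 of the helicase, RFC3 of the clamp loader, POLA1 and POLE2 of the polymerases, RRM2, RPA2, CCNE1, E2F2, E2F8, SLBP and CDCA7. The 2 were RFC5 and CCNE2. With the size factors of DESeq2 in place of TMM, edgeR with the block no longer called MCM4, GINS2, RFC3, POLE2 and RRM2. Their adjusted p was then 0.06639, 0.07585, 0.05542, 0.05433 and 0.09185. Without pair 1 the genes that the blocked fit no longer called included MCM4, GINS2, POLE2, RRM2 and CCNE1. In turn it called PRIM2 lower, which was not among the 15 (adjusted p = 0.04205 by edgeR). Single pairs weighed on these counts: without pair 1 the blocked fit called 10 members lower and 5 higher, and 1422 and 1900 of all genes. Without pair 2 it called 2 members lower and 2 higher (498 and 544 of all genes), and without pair 3 it called 17 and 4 (2191 and 2265). MCM3, CDCA7, RFC5 and CCNE2 were the members called without pair 2. By level alone, 12 members had each knockdown library below each control, as 14.1% of all genes tested did, and 2 had each above, as 8.73% did. In the role groups below, a gene is called or not called in these 2 fits, with the group alone and with the block. In 27 members all 3 pairs were lower in the knockdown (32.4% of all genes tested), and in 5 all 3 were higher (23.5%).

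**Figure D1:**
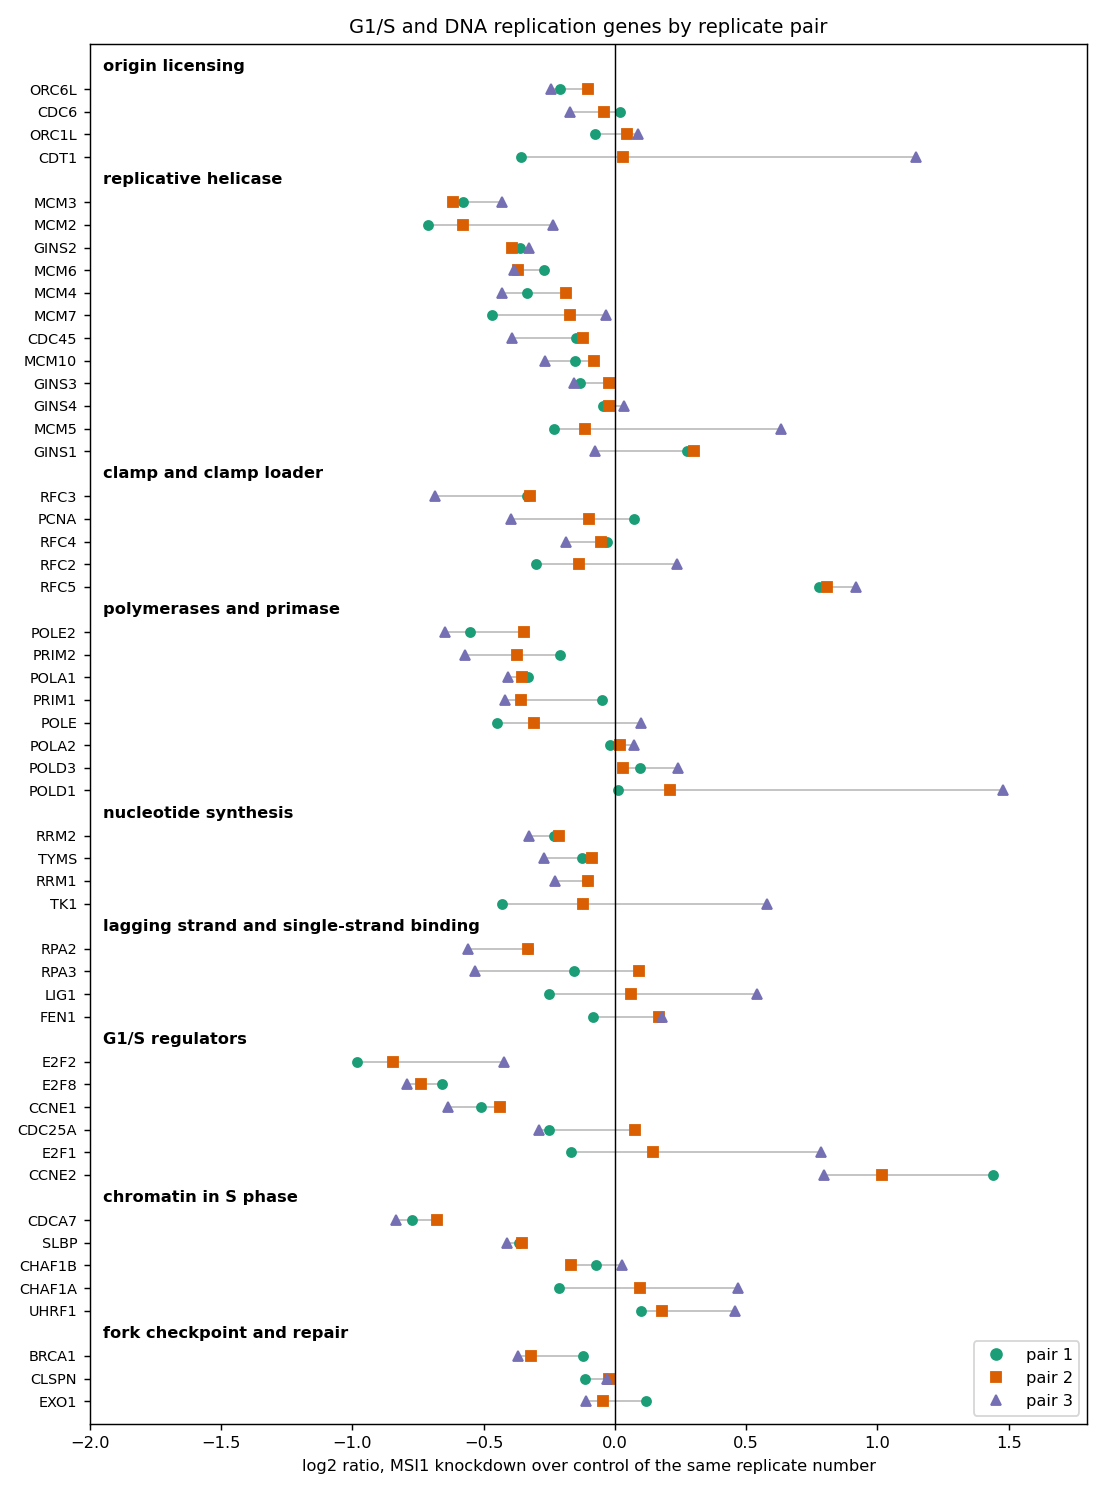
Log2 ratio of CPM, MSI1 knockdown over the control of the same replicate number, for each of the 51 genes, sorted by role. Each symbol is 1 pair and the grey line spans the 3 pairs. RFC5 and CCNE2 lie right of 0 in all pairs, while CDT1, POLD1 and MCM5 have pair 3 far to the right of pairs 1 and 2.

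The stretch before the transcription start is shown for MCM3, MCM6, CDCA7 and E2F2, which were called lower with the block and carry an E2F-type word there, and for RFC5, called higher, which carries none. The sequences are the 250 bases upstream of the RefSeq start in GRCh38.p14, 5′ to 3′ on the gene's strand, and capitals mark TTTCCCGC, TTTCGCGC, TTTGCCGC or TTTGGCGC on either strand. The windows are chr6:52284743-52284992 (minus strand) for MCM3, chr2:135876444-135876693 (minus) for MCM6, chr2:173354622-173354871 (plus) for CDCA7, chr1:23531234-23531483 (minus) for E2F2 and chr12:118016453-118016702 (plus) for RFC5.
MCM3: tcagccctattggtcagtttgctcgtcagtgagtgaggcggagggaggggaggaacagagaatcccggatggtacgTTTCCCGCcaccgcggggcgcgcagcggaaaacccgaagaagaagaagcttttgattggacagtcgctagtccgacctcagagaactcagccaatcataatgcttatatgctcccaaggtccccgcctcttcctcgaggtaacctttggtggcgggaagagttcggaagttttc
MCM6: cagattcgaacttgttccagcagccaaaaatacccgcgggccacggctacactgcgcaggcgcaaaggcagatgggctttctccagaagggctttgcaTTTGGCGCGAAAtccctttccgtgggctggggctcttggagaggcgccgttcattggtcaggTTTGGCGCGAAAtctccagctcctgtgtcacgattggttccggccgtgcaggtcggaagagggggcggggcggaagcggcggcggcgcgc
CDCA7: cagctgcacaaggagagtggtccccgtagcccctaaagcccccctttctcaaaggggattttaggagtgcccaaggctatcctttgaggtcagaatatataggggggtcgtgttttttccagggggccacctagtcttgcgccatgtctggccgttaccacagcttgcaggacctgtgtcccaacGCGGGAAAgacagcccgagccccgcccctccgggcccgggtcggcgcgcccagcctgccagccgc
E2F2: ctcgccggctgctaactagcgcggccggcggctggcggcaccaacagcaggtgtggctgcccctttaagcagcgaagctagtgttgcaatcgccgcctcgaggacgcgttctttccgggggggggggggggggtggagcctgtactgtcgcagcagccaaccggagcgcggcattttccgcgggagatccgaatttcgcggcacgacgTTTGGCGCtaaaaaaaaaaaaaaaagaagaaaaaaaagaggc
RFC5: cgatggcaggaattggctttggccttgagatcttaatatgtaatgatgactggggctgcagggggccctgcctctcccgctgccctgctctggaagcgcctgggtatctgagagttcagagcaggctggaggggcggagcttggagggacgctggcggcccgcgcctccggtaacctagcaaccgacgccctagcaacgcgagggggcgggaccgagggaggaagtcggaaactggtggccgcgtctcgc

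In MCM3 the word starts 174 bases before the transcription start, and in E2F2 it starts 42 bases before it. CDCA7 carries TTTCCCGC on the other strand, 65 bases before the start. In MCM6 the word TTTGGCGC stands at 152 and at 90 bases before the start, and each time TTTCGCGC on the other strand overlaps it. A RefSeq window was at hand for 43 members, and 17 of them (39.5%) held at least 1 of the 4 words, against 928 of 27305 RefSeq symbols with a window (3.40%). Members called lower with the block held a word in 7 of 12 windows, and members not called in 10 of 30. MCM2, POLE2, RRM2, CCNE1 and SLBP were called lower and held none. CCNE2 had no window, so RFC5 was the 1 higher member scanned. The sequences shown were picked by call and by word and are no comparison of lower with higher genes. The match is a description of letters and was not tested as a site.

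Of the helicase genes, MCM2, MCM3, MCM4, MCM6 and GINS2 were called lower with the block, and none with the group alone. All 6 of MCM2 to MCM7 had a log2 fold change below 0, with a median of −0.33. With the block 4 of the 6 were called lower, as were 10.3% of all genes tested, and without pair 2 MCM3 alone of these 4 was called. The median of the 12 helicase genes was −0.23. By pair, their median log2 ratios were −0.25, −0.15 and −0.25 in pairs 1, 2 and 3, with 11, 11 and 10 of the 12 genes lower in the knockdown. Over all 13856 genes tested the medians of pairs 1, 2 and 3 were −0.07, −0.03 and 0.01. Of these genes 8311, 7429 and 6836 were lower, which is the background of the pair counts in the role groups below as well.

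MCM3, a subunit of the ring (chromosome 6, 52236771 to 52257541, minus strand, hg18), was at 144, 138 and 138 CPM in knockdown libraries 1, 2 and 3, against 215, 211 and 186 CPM in controls 1, 2 and 3. The groups did not overlap, and the spread among the knockdown libraries was small. Its log2 fold change was −0.54 (standard error 0.12), with an adjusted p of 0.0765 by edgeR's quasi-likelihood test with the group alone and of 0.00817 with the block. MCM2, a ring subunit that also binds histones (chromosome 3, 128799943 to 128823968, plus strand), was at 108, 118 and 93.7 CPM in the knockdown, against 177, 176 and 110.3 CPM in controls. Control 3 was far below the other controls and overlapped the knockdown range. The pair ratios of MCM2 were −0.71, −0.58 and −0.24, and its adjusted p was 0.275 with the group alone and 0.0273 with the block.

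MCM4, a ring subunit that carries regulatory phosphorylation sites, had 272, 274 and 269 CPM in the knockdown and 342, 312 and 362 CPM in controls. MCM6, which contacts the licensing factor CDT1, had 127, 117 and 141 CPM in the knockdown and 153, 151 and 184 CPM in controls. Neither gene's groups overlapped, with log2 fold changes of −0.32 and −0.34 and adjusted p of 0.0390 and 0.0256 by edgeR with the block. GINS2, a subunit of the GINS complex, had 32.7, 27.9 and 29.3 CPM in the knockdown and 42.002, 36.6 and 36.7 CPM in controls. Its groups did not overlap either, and its pair ratios of −0.36, −0.39 and −0.33 were close to each other (adjusted p = 0.0469 with edgeR's block, 0.307 without). The other GINS genes were not called, with log2 fold changes of 0.16 for GINS1, −0.10 for GINS3 and −0.01 for GINS4. CDC45, the third part of the active helicase, had −0.21, MCM7 −0.24, MCM10 −0.17 and MCM5 −0.01, none of them called.

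**Figure D2:**
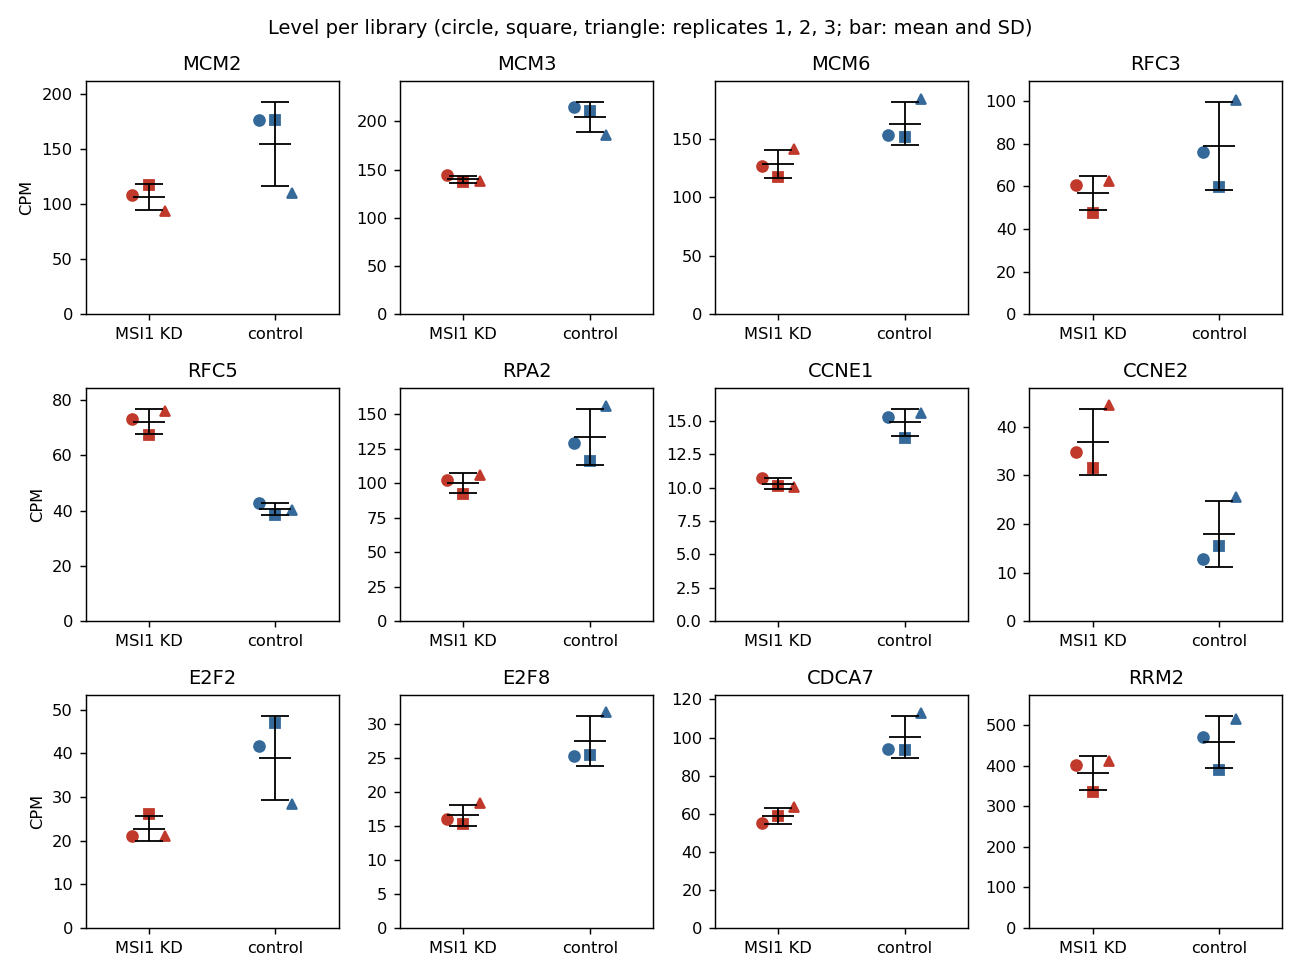
CPM in each library (circle, square and triangle for replicates 1, 2 and 3) of 12 genes, MSI1 knockdown left and control right in each panel, with the mean and SD over 3 libraries as bars. RFC5 and CCNE2 have each knockdown library above each control, MCM3, MCM6, RPA2, CCNE1, E2F2, E2F8 and CDCA7 are lower, and the groups of MCM2, RFC3 and RRM2 overlap.

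Origin licensing genes showed no difference that passed a test in either edgeR fit, and their median log2 fold change was −0.03. ORC6L, the least conserved subunit of the origin recognition complex, was at 50.1, 50.2 and 58.7 CPM in the knockdown, against 58.0, 53.8 and 69.5 CPM in controls. CDC6, the ATPase that brings the MCM ring to the origin, was at 118.8, 111 and 135 CPM in the knockdown and at 117, 115 and 152 CPM in controls. Both groups overlapped, with log2 fold changes of −0.19 and −0.07 (adjusted p = 0.673 and 0.896 by edgeR, group alone). CDT1, the partner of CDC6 in loading, had pair ratios of −0.36, 0.03 and 1.15, so that pair 3 was apart from the others. ORC1L, the largest subunit of the origin recognition complex, had a log2 fold change of 0.02.

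In the clamp and its loader, RFC5 stood against the rest. RFC5, a subunit of the ATPase ring that opens PCNA (chromosome 12, 116938891 to 116954422, plus strand), was at 73.2, 67.3 and 76.2 CPM in the knockdown, against 42.7, 38.4 and 40.3 CPM in controls. The lowest knockdown library was well above the highest control, and the pairs had log2 ratios of 0.78, 0.81 and 0.92. Its log2 fold change was 0.84 (standard error 0.14), with an adjusted p of 0.0354 by edgeR's quasi-likelihood test, group alone, and of 0.00403 with the block. The call of the fit without the block was lost when any library but control 3 was left out: the adjusted p was 0.150 without control 1, 0.143 without control 2, and 0.212, 0.156 and 0.157 without knockdown 1, 2 and 3, at log2 fold changes between 0.80 and 0.90. Without control 3 it was 0.00373.

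RFC3, another loader subunit, was at 60.5, 47.5 and 62.4 CPM in the knockdown, against 76.2, 59.4 and 100.5 CPM in controls. The groups overlapped, while each pair was lower in the knockdown (−0.33, −0.32 and −0.69). RFC3 was called with the block (log2 fold change −0.45, adjusted p = 0.0381 by edgeR) and not without it (0.382). The log2 fold changes of the other loader genes were −0.09 for RFC2 and −0.09 for RFC4, and that of the clamp PCNA was −0.17, none of them called. Exons of RFC4 and of EIF4A2 on the opposite strand share 4 bases, and exons of PCNA share 384 with PCNAAS. By pair, the median log2 ratios of the 5 clamp and loader genes were −0.03, −0.10 and −0.18, with 3, 4 and 3 genes lower in the knockdown.

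Among polymerases and primase, POLA1 and POLE2 were called lower with the block and the other 6 genes were not called with the block or with the group alone. The 8 genes had a median log2 fold change of −0.26, and pair medians of −0.13, −0.33 and −0.17 with 6, 5 and 4 genes lower. POLA1, the catalytic subunit that extends primers, was at 109, 90.2 and 119.7 CPM in the knockdown, against 137, 115 and 159 CPM in controls. Its knockdown range reached just into that of the controls, and the pairs were close to each other at −0.33, −0.35 and −0.41. The adjusted p of POLA1 was 0.0213 with edgeR's block and 0.379 without.

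POLE2, an accessory subunit of the leading strand polymerase, was at 9.54, 10.8 and 14.3 CPM in the knockdown, against 14.0, 13.7 and 22.4 CPM in controls. Library 3 was the highest in both groups, and the groups overlapped (log2 fold change −0.52 and adjusted p = 0.0407 with edgeR's block, −0.53 and 0.408 without). PRIM2, the large primase subunit, was at 36.2, 29.7 and 35.9 CPM in the knockdown and 41.8, 38.5 and 53.3 CPM in controls, which did not overlap. It was not called in either fit (log2 fold change −0.39, adjusted p = 0.365, and 0.0606 with edgeR's block). POLD1, the catalytic subunit of the lagging strand polymerase, was at 50.6, 62.4 and 34.5 CPM in the knockdown and at 50.2, 54.0 and 12.4 CPM in controls. Control 3 was at a level far below the other libraries, so that the log2 fold change of 0.34 had a standard error of 0.51, and it was −0.03 without control 3. The remaining log2 fold changes were −0.25 for POLE, −0.27 for PRIM1, 0.02 for POLA2 and 0.13 for POLD3, none of them called in these 2 fits.

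All 4 nucleotide synthesis genes had log2 fold changes below 0, with a median of −0.16, and RRM2 alone was called, with the block. The pair medians were −0.18, −0.11 and −0.25, with 4, 4 and 3 of the 4 genes lower in the knockdown. RRM2, the regulated subunit of ribonucleotide reductase (chromosome 2, 10180146 to 10188997, plus strand), was at 402, 335 and 411 CPM in the knockdown, against 472, 388 and 515 CPM in controls. The groups overlapped and library 2 was the lowest in both, with pair ratios of −0.23, −0.21 and −0.33. RRM2 was called lower with the block (log2 fold change −0.26, adjusted p = 0.0466 by edgeR) and not without it (0.501), nor without 1 of pairs 1, 2 and 3 in the blocked fit. TYMS, thymidylate synthase, was at 324, 281 and 282 CPM in the knockdown and at 354, 298 and 339 CPM in controls, which overlapped. It was not called (log2 fold change −0.16, adjusted p = 0.174 with edgeR's block), and its exons overlap those of ENOSF1 and C18orf56 on the opposite strand. The large reductase subunit RRM1 had −0.15 and thymidine kinase TK1 −0.07, neither of them called.

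Of the genes for the lagging strand and for single-strand binding, RPA2 was called lower with the block and the others were not called. RPA2, the middle subunit of replication protein A, was at 102, 92.1 and 106 CPM in the knockdown, against 129, 116 and 155 CPM in controls. The groups did not overlap, and the log2 fold change was −0.42 (standard error 0.15, adjusted p = 0.244 by edgeR, and 0.0247 with the block). RPA3, the small subunit, was at 60.4, 53.8 and 49.4 CPM in the knockdown and at 67.4, 50.5 and 71.4 CPM in controls. Its pairs did not share a sign (−0.16, 0.09 and −0.53). The flap nuclease FEN1 and the ligase LIG1 had log2 fold changes of 0.08 and 0.04.

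With the group alone, the G1/S regulators held the largest log2 fold change in each direction, CCNE2 and E2F2, though with the block the largest fall was that of CDCA7. With the block the cyclin E genes were called in opposite directions. CCNE2, cyclin E2 (chromosome 8, 95961629 to 95976658, minus strand), was at 34.7, 31.4 and 44.4 CPM in the knockdown, against 12.8, 15.5 and 25.6 CPM in controls. CCNE1, cyclin E1 (chromosome 19, 34994741 to 35007059, plus strand), was at 10.7, 10.1 and 10.01 CPM in the knockdown, against 15.3, 13.7 and 15.6 CPM in controls. Neither gene's groups overlapped, with CCNE2 higher and CCNE1 lower in each pair. The log2 fold change of CCNE2 was 1.04 (standard error 0.29) with the group alone and 1.09 with the block, at adjusted p of 0.132 and 0.00817 by edgeR. Without control 3, the control with the highest CCNE2, the fit without the block gave 1.45 (adjusted p = 0.000866). For CCNE1 the log2 fold change was −0.53 (standard error 0.16), at adjusted p of 0.168 and 0.0361. Exons of CCNE2 share 269 bases with INTS8 on the opposite strand, whose own log2 fold change was −0.04.

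E2F2, an activator of the E2F family (chromosome 1, 23705509 to 23730300, minus strand), was at 21.1, 26.1 and 21.1 CPM in the knockdown, against 41.7, 46.9 and 28.3 CPM in controls. E2F8, an atypical E2F that represses E2F targets (chromosome 11, 19202186 to 19219083, minus strand), was at 16.0, 15.3 and 18.3 CPM in the knockdown, against 25.3, 25.5 and 31.8 CPM in controls. Both genes had each knockdown library below each control. Log2 fold changes were −0.78 (standard error 0.22) for E2F2 and −0.73 (standard error 0.17) for E2F8, at adjusted p of 0.145 and 0.0886 by edgeR with the group alone and of 0.0180 and 0.00924 with the block. Neither was called with the block without pair 2 (adjusted p = 0.0649 for E2F2 and 0.0620 for E2F8). E2F1 and the phosphatase CDC25A had log2 fold changes of 0.16 and −0.16, and neither was called.

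In the S phase chromatin group, CDCA7 and SLBP were called lower with the block, and UHRF1 and the CAF-1 subunits were not called. CDCA7, a MYC and E2F target that works with the remodeller HELLS (chromosome 2, 173927807 to 173941964, plus strand), was at 55.1, 58.5 and 63.4 CPM in the knockdown, against 94.2, 93.6 and 113 CPM in controls. The highest knockdown library was well below the lowest control, and the pairs were at −0.77, −0.68 and −0.83. By edgeR with the group alone its log2 fold change was −0.77 (standard error 0.14, adjusted p = 0.0520, just above the threshold). With the block it was −0.76 (standard error 0.081, adjusted p = 0.00415). SLBP, which binds the stem-loop of histone messages, was at 70.0, 65.9 and 85.3 CPM in the knockdown, against 90.3, 84.3 and 113 CPM in controls. Knockdown 3 lay just above control 2, the pairs were at −0.37, −0.36 and −0.41, and the adjusted p was 0.0237 with edgeR's block and 0.362 without. UHRF1, which guides maintenance DNA methylation, had a log2 fold change of 0.22, CHAF1A 0.07 and CHAF1B −0.08.

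The fork checkpoint and repair genes were not called in either fit. BRCA1, which protects stalled forks, was at 96.9, 79.8 and 108 CPM in the knockdown and at 105, 99.6 and 140.2 CPM in controls, which overlapped. Its log2 fold change was −0.28 (adjusted p = 0.577, and 0.0777 with edgeR's block). CLSPN, the adaptor that passes the ATR signal to CHEK1, was at 92.0, 99.1 and 129 CPM in the knockdown and at 99.6, 101 and 131 CPM in controls, with a log2 fold change of −0.05. The nuclease EXO1 had −0.01.

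**Figure D3:**
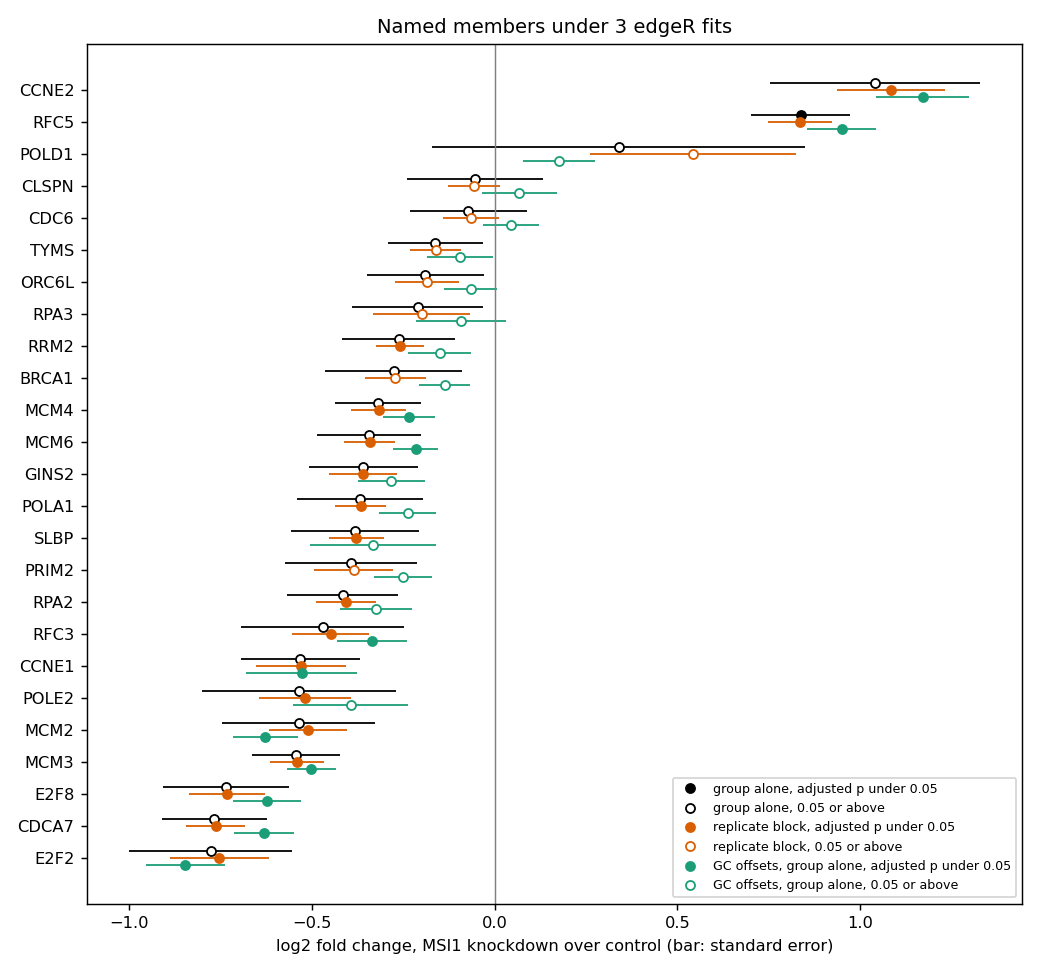
Log2 fold change, MSI1 knockdown over control, with its standard error for the 25 members described by sample, under edgeR with the group alone, with the replicate block and with offsets for GC content. Filled points have an adjusted p under 0.05. RFC5 is filled under each fit and CCNE2 under the last 2, both near 1, while most other members lie between −0.8 and 0.

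Control library 3 was low for members with GC-rich transcripts and high for those with GC-poor ones. GC content of the longest matched transcript ran from 36.9% for CCNE2 to 65.0% for POLD1, with a median of 48.1% over the 51 members. The log2 deviation of control 3 from the mean of controls 1 and 2 had Pearson's r = −0.91 and Spearman's rho = −0.86 with GC content over the 51 members, and that of knockdown 3 from its own group had r = −0.86. These are descriptions across genes of the same libraries. POLD1 deviated by −2.07 in control 3 and by −0.70 in knockdown 3, and CDT1 by −1.93 and −0.62. Pair 3 gave POLD1 a ratio of 1.48 and CDT1 1.15, while pairs 1 and 2 gave POLD1 0.01 and 0.21.

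With offsets per library that follow GC content, an alternative chosen after seeing the data, edgeR with the group alone called 10 members lower (10.3% of the 13376 genes with a GC value) and 2 higher (9.93%). The median of the members was then −0.09. The 10 were MCM2, MCM3, MCM4, MCM6, RFC3, POLE, CCNE1, E2F2, E2F8 and CDCA7, and the 2 were RFC5 and CCNE2. Of these 12 genes 11 were also called with the replicate block, all but POLE. GINS2, POLA1, POLE2, RRM2, RPA2 and SLBP, called lower with the block, had adjusted p between 0.0517 and 0.271 with the GC offsets alone, and between 0.000991 and 0.0208 with the offsets and the block. With both the offsets and the block, edgeR called 19 members lower (20.1% of genes) and 5 higher (19.6%). The part of GC content in the block calls was not tested beyond these fits.

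**Figure D4:**
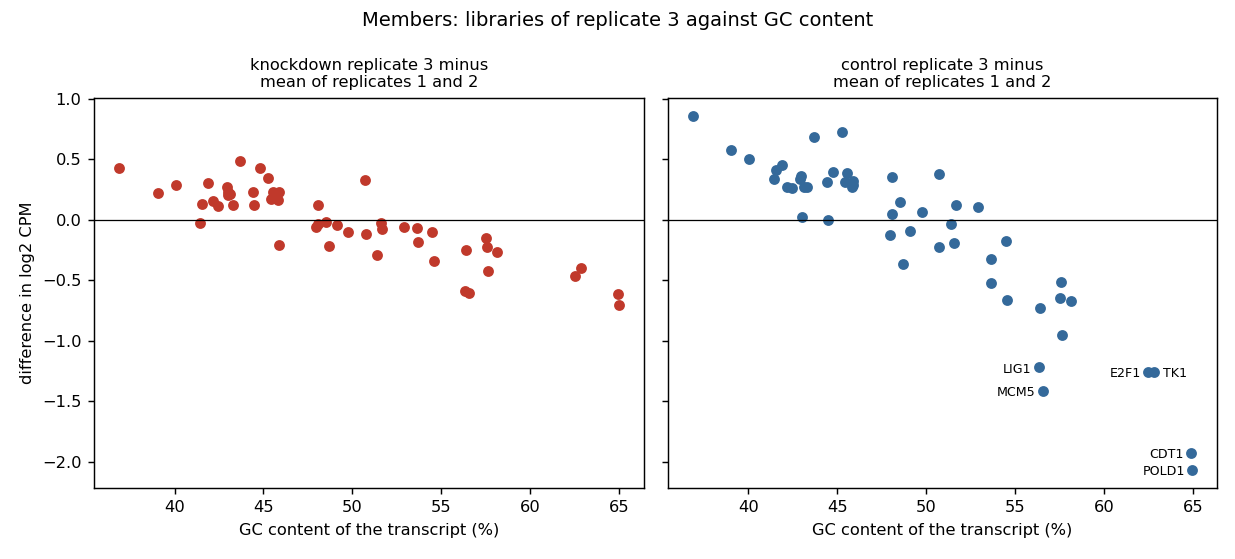
Difference in log2 CPM of library 3 from the mean of libraries 1 and 2 of its group (knockdown left, control right) against the GC content of the transcript in percent, 1 point per member. The differences run from above 0 at low GC to below 0 at high GC in both groups, to −0.70 in the knockdown and −2.07 in the controls, both for POLD1.

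In RFC5, CCNE2, MCM3, E2F8, CDCA7, E2F2 and MCM2 each exon counted had the sign of the gene's own log2 fold change, except exon 2 of RFC5. Of the other members called lower with the block, GINS2, POLA1, RPA2, CCNE1 and SLBP had each exon counted below 0. MCM4, MCM6, RRM2, POLE2 and RFC3 did not, with highest exon log2 ratios of 0.184, 0.092, 0.275, 0.059 and 0.023. For RFC5, 11 of 12 exons with a mean count of at least 20 were above each control in each knockdown library, with log2 ratios of mean CPM between 0.76 and 1.23. The exception, exon 2 of 12 (116939878 to 116940241), was at 0.564, 1.102 and 0.956 CPM in the knockdown and at 1.083, 0.643 and 1.432 CPM in controls, a log2 ratio of −0.24, with groups that overlapped. For CCNE2, 10 of 11 exons were above each control, with a ratio of 1.01 for the last exon. Exon 2 of CCNE2 was at 0.66, 1.08 and 0.91 CPM in the knockdown and at 0.04, 0.28 and 0.19 CPM in controls, and it reached the minimum count through the knockdown libraries, so its place among the 10 is no support. MCM3 had 11 of 17 exons below each control, E2F8 11 of 13, CDCA7 5 of 10, E2F2 3 of 7 and MCM2 4 of 16. Exons of 1 gene share their libraries and are not separate evidence of the gene's change.

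**Figure D5:**
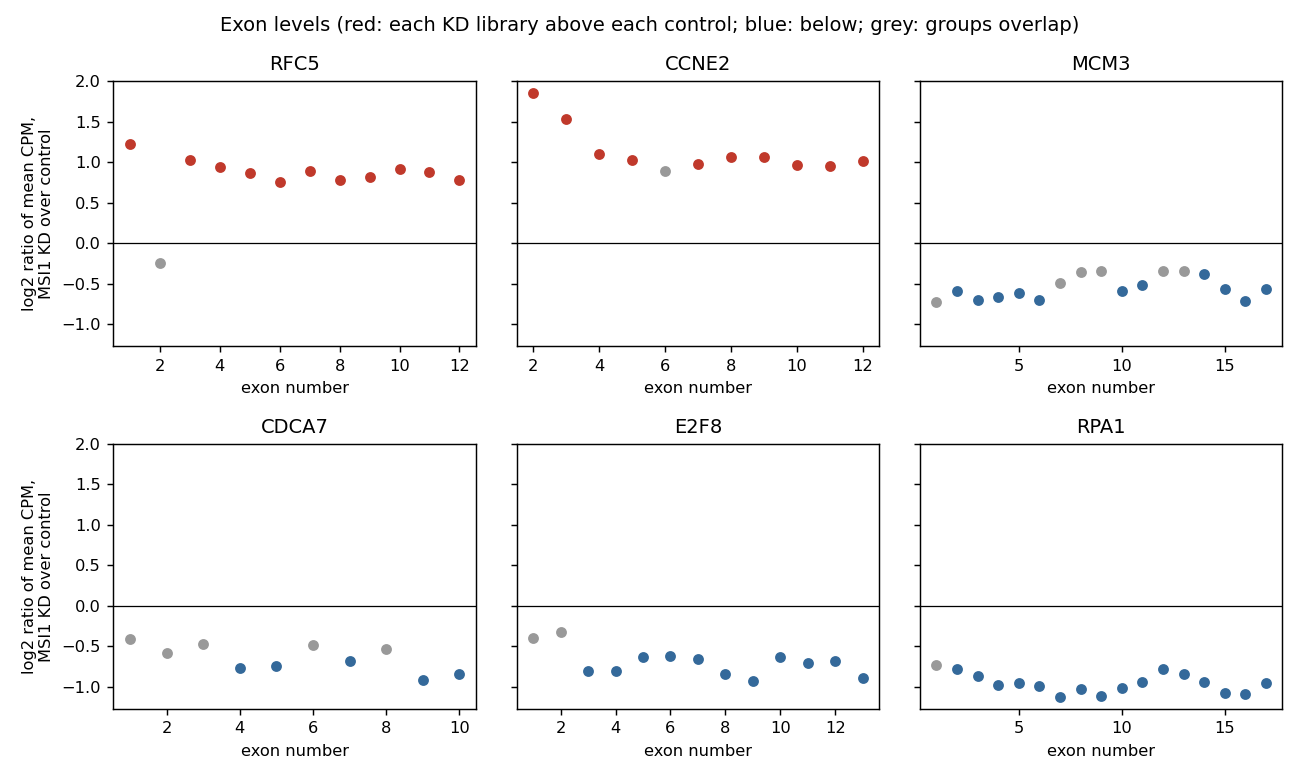
Log2 ratio of mean CPM (knockdown over control) for each exon with a mean count of at least 20, numbered in the direction of transcription, in RFC5, CCNE2, MCM3, CDCA7, E2F8 and RPA1. Red exons have each knockdown library above each control, blue exons below, and grey exons overlap. RFC5 exon 2 is the exon below 0 in that gene.

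Levels per length differed widely between the members. In CPM per kilobase of exon, TYMS was the highest at a mean of 187 in knockdown libraries and 209 ± 18.2 in controls (SD, n = 3), then RRM2 at 111 and 134 ± 18.8 and PCNA at 106 and 119.4 ± 37.2. RRM2 and PCNA overlapped in their spread. The lowest in controls were CCNE2 at 13.5 in the knockdown and 6.58 ± 2.48 in controls, E2F8 at 4.45 and 7.40 ± 0.989, CCNE1 at 5.18 and 7.49 ± 0.504 and E2F2 at 4.38 and 7.51 ± 1.85, and these 4 did not differ beyond their spread in controls. In controls CCNE1 and CCNE2 were close to each other per length, and in the knockdown CCNE2 was the higher.

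Other genes of replication and of the G1/S switch were taken from a further list, of which 65 were found and tested. Their median log2 fold change was −0.14, 50 of the 65 were below 0, and edgeR with the group alone called 1 lower and 0 higher (0.902% and 0.772% of all genes tested). The blocked fit called 8 lower and 3 higher, shares near and below the 10.3% and 7.04% of all genes tested. At an unadjusted p under 0.05 the test with the group alone gave 9 of the 65, against 2154 of all 13856 genes. DESeq2 called 1 lower and 2 higher, near the 2.23% and 2.82% of all genes. RPA1, the large subunit of replication protein A (chromosome 17, 1680023 to 1749598, plus strand), was at 174, 147 and 178 CPM in the knockdown, against 325, 301 and 340.1 CPM in controls. Each knockdown library was far below each control, as were 16 of its 17 exons. RPA1 fell by 0.95 on the log2 scale (standard error 0.13, adjusted p = 0.0211 by edgeR, group alone). That call was lost without any library but control 3, at adjusted p of 0.108 and 0.0823 without controls 1 and 2 and of 0.199, 0.132 and 0.126 without knockdowns 1, 2 and 3, and the log2 fold changes lay between −1.004 and −0.875.

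E2F7, an atypical repressor like E2F8, was at 143, 139.7 and 165 CPM in the knockdown, against 89.2, 84.8 and 109 CPM in controls. It was higher in each pair, the opposite of E2F8 (log2 fold change 0.66, adjusted p = 0.0785, and 0.00426 with edgeR's block), and all 13 of its exons were above each control. E2F5, a repressor E2F, was at 13.0, 10.5 and 12.1 CPM in the knockdown, against 7.36, 6.17 and 7.31 CPM in controls, again without overlap (log2 fold change 0.78, adjusted p = 0.0908, and 0.0134 with edgeR's block). Exons of E2F5 share 467 bases with C8orf59 on the opposite strand. Other genes called with the block included CDC7, MCM8, TIMELESS, RBL2, BRCA2 and FANCD2, lower, and RRM2B, higher, with log2 fold changes between −0.61 and 0.48 in the fit without it. Exons of RBL2 share 369 bases with AKTIP on the opposite strand, whose own log2 fold change was −0.88.

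In MSI1 iCLIP no member had an exonic nucleotide in all 3 lists, a count close to what the low share over all genes would give. The 3 deposited lists held 1746795, 145718 and 208722 sites in wild type cells, and 4446 nucleotides were in all 3 lists on the same strand. None of these lay in an exon of a member (0 of 51), against 344 of the 13856 genes tested (2.48%), and 1 lay in an intron of GINS1. Each listed nucleotide was counted here and below, whatever its deposited p-value. With only nucleotides at a deposited p of 0.05 or below, 24 of the 13856 genes (0.173%) had a shared exonic site. When sites within 5 nucleotides were counted as shared, RRM2 and TYMS qualified (2 of 51, against 6.93%). Between lists 1 and 3 alone, 8 members shared an exonic nucleotide (16.6% of all genes tested): ORC6L, GINS3, GINS4, RFC5, POLA1, RRM2, TK1 and FEN1. No member shared an exonic nucleotide between lists 2 and 3 (4.76% of all genes tested) or between lists 1 and 2 (7.83%). List 1 had an exonic site in 48 of the 51 members (81.3% of all genes tested), list 2 in 30 (40.3%) and list 3 in 34 (51.3%). The most exonic sites were on GINS4, with 51, 8 and 11 in lists 1, 2 and 3, and on RRM2, with 40, 7 and 12, both picked after their values were seen. RFC5 had 10, 0 and 2 exonic sites and CCNE2 8, 0 and 8. Site numbers grow with RNA level and with list size, which were not corrected for here.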

How the data were processed

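Per the deposited files, the authors gave raw counts of reads per gene and per exon for each RNA-seq library. For iCLIP they deposited 1 list of crosslinked nucleotides per sample, each nucleotide with a p-value. Positions are in hg18, as the submitters' processing notes name it. Neither the aligner nor the counter, the strand setting or the peak caller is given in the sources used here. Gene counts were filtered (filterByExpr), scaled (TMM) and fitted over all genes with edgeR 4.0.16 in R 4.3.3 (quasi-likelihood, adjusted after Benjamini-Hochberg, threshold 0.05). The main fit had group as its only term and 4 residual degrees of freedom. Same-numbered libraries deviated together from their groups (correlations 0.318, 0.732 and 0.751, each above 0.1), so the numbers in the titles were taken as pairs and used as a block, which left 2 residual degrees of freedom. Control 1 correlated more with knockdown 2 (0.494). No libraries agreed within sampling noise. DESeq2 1.42.0 was an alternative. GC offsets came from a lowess (span 0.3) on the longest GENCODE 29 transcript matched by symbol. iCLIP sites were joined with bedtools 2.31.1. Named genes are MSI1, the members called in either edgeR fit, the 2 of lowest p per role, the extremes, and pathway genes called or among the 4 of lowest blocked p. Members and lists were chosen with earlier results of these data known. Tests were tried on simulated data, with counts drawn from the means, sizes and spread of these libraries. There the fit with the group alone called 3% of genes changed 1.5-fold, 13.4% changed 2-fold and 77.3% changed 4-fold. It made 1 false call. A gene not called in that fit may therefore still have changed. The simulated counts were drawn independently for each gene and library, with no GC trend and no replicate pairs. The number of false calls there need not hold for the real libraries. DTYMK and RAD17 were not analysed here, and the values of 1 other pathway gene are not reported here.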

Additional observations from a re-analysis of the deposited data

How the results depend on the processing

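Members called lower numbered 0 with the group alone, 15 with the replicate block, 10 with the block and the size factors of DESeq2, 2 with DESeq2, 4 without control 3 and 0 without any other single library. With the block and without pair 1, 2 or 3 they numbered 10, 2 or 17. Members called higher numbered 1, against 2 with the block (under either scaling), with DESeq2 and without control 3, 0 without any other single library, and 5, 2 or 4 with the block and without pair 1, 2 or 3. Pathway genes called lower numbered 1, against 8 with the block, 5 with the block and the size factors of DESeq2, 0 to 1 without 1 library and 6, 3 or 13 with the block and without pair 1, 2 or 3. Pathway genes called higher numbered 0, against 3 with the block under either scaling, 2 with DESeq2, 0 to 3 without 1 library and 6, 1 or 7 with the block and without pair 1, 2 or 3.

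Over all genes, 125 were called lower and 107 higher with the group alone, against 1422 and 976 with the replicate block, 1115 and 1163 with the block and the size factors of DESeq2, and 316 and 399 with DESeq2. Leaving out 1 library gave 0 to 399 lower and 0 to 629 higher. With the block, leaving out pair 1, 2 or 3 gave 1422, 498 or 2191 lower and 1900, 544 or 2265 higher. GC offsets, added after seeing the data, gave 1379 lower and 1328 higher, 10 and 2 members and 9 and 5 pathway genes. GC offsets with the replicate block gave 2685 lower and 2623 higher, 19 and 5 members and 18 and 10 pathway genes.

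The median log2 fold change of the members was −0.16 and stayed below 0 under each alternative run. It lay between −0.232 and −0.0967 without 1 library, and was −0.0861 with the block and without pair 3, −0.0921 with GC offsets and −0.0918 with GC offsets and the block. Among named genes 4 changed sign, and none of these was called in either edgeR fit. CDC6 lay between −0.146 and 0.13 without 1 library (0.13 without control 3, 0.015 without knockdown 1), and was at 0.0385 with the block and without pair 3, 0.0456 with GC offsets and 0.0469 with GC offsets and the block. CLSPN was at 0.15 without control 3, 0.11 without knockdown 1, 0.068 with GC offsets and 0.0611 with GC offsets and the block. POLD1 lay between −0.0258 (without control 3) and 0.649 without 1 library, and RPA3 was at 0.014 with the block and without pair 3. With the block and without pair 1, POLD1 was called higher by edgeR (log2 fold change 0.84, adjusted p = 6.473e-05). The cause of these shifts was not tested. Members with a shared exonic iCLIP site numbered 0, against 2 within 5 nucleotides and 0 to 8 without 1 list. With 3 libraries a group, and 1 residual degree of freedom when a pair was left out of the block, the size of small differences in single genes is uncertain, and the smaller iCLIP lists 2 and 3 limit what overlap with list 1 can show.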
